A study of Mus musculus with 8 samples.

Results

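The 4 Hox clusters of the mouse were followed through the contacts of acetylated chromatin in embryonic stem cells. A loop is a pair of genomic regions, called anchors, whose ends were joined in read pairs, and loops were taken as Hox loops when at least 1 anchor lay within 5 kb of an annotated start of 1 of 38 listed Hox genes. This rule gave 162 Hox loops of 415681 loops in the series table, built on 5 Hox anchors of 30044 anchors. They held 1233 read pairs of 8449329 over 8 libraries. Of the 38 genes, 6 had an anchor within 5 kb of a start and 32 had none.

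The measurement was H3K27ac HiChIP, in which DNA ends that are close in the nucleus are ligated and fragments carrying acetylated lysine of histone H3, a mark of active promoters and enhancers, are pulled down. There were 4 cell lines, each with 2 technical replicates. B6 (line B6 5-1) was of strain C57BL/6J and D2 (line D2 5-5) of DBA/2J. B6-13D2 (line QJ 6-1) was a congenic line carrying a D2 interval of chromosome 13 on the B6 genome, and D2-13B6 (line XE 2-4) was the reciprocal congenic, with a B6 interval on the D2 genome. All lines were grown the same way, in serum with LIF, the MEK inhibitor PD0325901 and the GSK3 inhibitor CHIR99021. Each genotype was 1 line, so every comparison below is between lines, and its p-value measures the difference against the spread between technical libraries of 1 line. Library totals ran from 737955 to 1425304 read pairs. All 16 embryonic stem cell markers examined, Pou5f1, Nanog and Sox2 among them, had an anchor within 5 kb, against 1 of 17 markers of differentiated and extraembryonic cells.

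Hox genes encode homeodomain transcription factors that give cells their position along the body axis. In mammals they lie in 4 clusters that arose by duplication of an ancestral cluster, and genes with the same number in different clusters are paralogues. Low-numbered genes are expressed early and towards the head, high-numbered genes late and towards the tail. In embryonic stem cells the clusters are mostly silent, rich in CpG dinucleotides and covered by Polycomb proteins and H3K27me3, a mark on the same residue that H3K27ac occupies.

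Promoter sequences are shown because the CpG density of genes with an anchor lay within the range of those without. RefSeq (GRCm38.p6) promoters were matched for 22 of the 38 genes by symbol. Hoxa2 is the matched gene with an anchor, Hoxa13 is the other end of the same cluster, Hoxc4 lies just outside the 5-kb window, and Hoxd13 belongs to the cluster with no anchor. The 250 bases before each start are given on the coding strand, 5′ to 3′, with every CG in capitals. They lie at chr6:52164832-52165081 (minus strand), chr6:52260881-52261130 (minus strand), chr15:103034145-103034394 (plus strand) and chr2:74667975-74668224 (plus strand), in that order.
Hoxa2: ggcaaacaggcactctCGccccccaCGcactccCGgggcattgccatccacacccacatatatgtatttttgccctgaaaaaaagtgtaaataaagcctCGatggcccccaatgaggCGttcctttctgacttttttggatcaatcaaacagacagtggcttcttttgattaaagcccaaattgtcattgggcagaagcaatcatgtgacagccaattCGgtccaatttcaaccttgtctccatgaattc
Hoxa13: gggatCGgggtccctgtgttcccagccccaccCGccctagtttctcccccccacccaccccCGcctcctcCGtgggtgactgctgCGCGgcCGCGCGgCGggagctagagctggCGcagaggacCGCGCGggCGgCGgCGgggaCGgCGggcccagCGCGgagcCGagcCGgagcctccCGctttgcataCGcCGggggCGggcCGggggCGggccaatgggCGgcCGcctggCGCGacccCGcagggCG
Hoxc4: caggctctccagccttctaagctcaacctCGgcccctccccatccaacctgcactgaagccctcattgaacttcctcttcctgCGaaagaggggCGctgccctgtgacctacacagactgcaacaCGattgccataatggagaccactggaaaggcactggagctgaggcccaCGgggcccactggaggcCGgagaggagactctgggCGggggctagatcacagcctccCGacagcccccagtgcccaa
Hoxd13: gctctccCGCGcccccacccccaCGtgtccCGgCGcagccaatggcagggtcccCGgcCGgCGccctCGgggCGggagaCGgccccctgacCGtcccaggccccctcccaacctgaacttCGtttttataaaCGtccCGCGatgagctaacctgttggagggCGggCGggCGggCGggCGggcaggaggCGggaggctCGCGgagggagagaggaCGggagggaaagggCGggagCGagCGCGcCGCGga
The Hoxa2 promoter held 6 CG, the same as the median of all 32851 promoters in the table. Hoxa13 held 35, Hoxd13 held 31 and Hoxc4 held 8. The 21 matched Hox promoters without an anchor had a median of 13 CG, with a range from 2 to 35. The letters TATAAA, searched on both strands, occurred in 4 of these 21, including Hoxd13, and in 12.4% of all promoters. In a 5-kb window centred on a start, the 32 genes without an anchor had a median of 36.9 CG per kb (21.8 to 57.6), and the 6 genes with one had 33.2 (23.0 to 39.2). The range of the genes with an anchor lay inside that of the genes without one, and 14 of the 32 genes without one were above every gene with one. Neighbouring windows share bases, so these are descriptions.

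The share of Hox genes with an acetylated contact anchor was low. It was 15.8% of the listed genes (6 of 38, exact 95% interval 6.02% to 31.3%), against 58.0% of 21911 protein-coding genes. The 6 genes were Hoxa2, Hoxb13, Hoxc13, Hoxc12, Hoxc6 and Hoxc5. Hoxa2 patterns the second branchial arch and the hindbrain, Hoxb13 acts in the tail bud and prostate, and Hoxc13 acts in hair follicles and nails. Hoxc12 is the gene next to it, and Hoxc5 and Hoxc6 are middle genes of the same cluster that shared 1 anchor. Non-coding RNAs start near 3 of the 5 anchors, among them Hotairm1 and Hoxaas2 at the Hoxa2 anchor and Mir615 at the Hoxc5/Hoxc6 anchor, so counts there cannot be assigned to a single promoter.

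The clusters differed in which end was marked. Hoxa had an anchor at 1 of 10 listed genes, at Hoxa2 near its low-numbered end, and the other 9 starts lay 18.9 kb (Hoxa3) to 95.8 kb (Hoxa13) from the nearest anchor. Hoxb also had 1 of 10, but at the opposite, high-numbered end, and Hoxb9, the next listed gene, was 11.5 kb from an anchor without a coding start. Hoxc had 4 of 9. Hoxd had 0 of 9, and its genes lay 22.02 kb (Hoxd1) to 82.7 kb (Hoxd9) from the nearest anchor.

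With few genes per cluster the intervals of these shares were wide. The exact 95% interval was 13.7% to 78.8% for Hoxc and 0.253% to 44.5% for both Hoxa and Hoxb. The count of 0 in Hoxd says that none of its starts lay near an anchor of the table. How anchors were chosen is not given in the sources used here, so it does not measure acetylation at Hoxd. With a window of 10 kb 7 genes were counted, the added one being Hoxc4, 5.61 kb from an anchor, and with the start inside the anchor itself 4 genes were counted. All settings left Hoxd at 0.

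**Figure D1:**
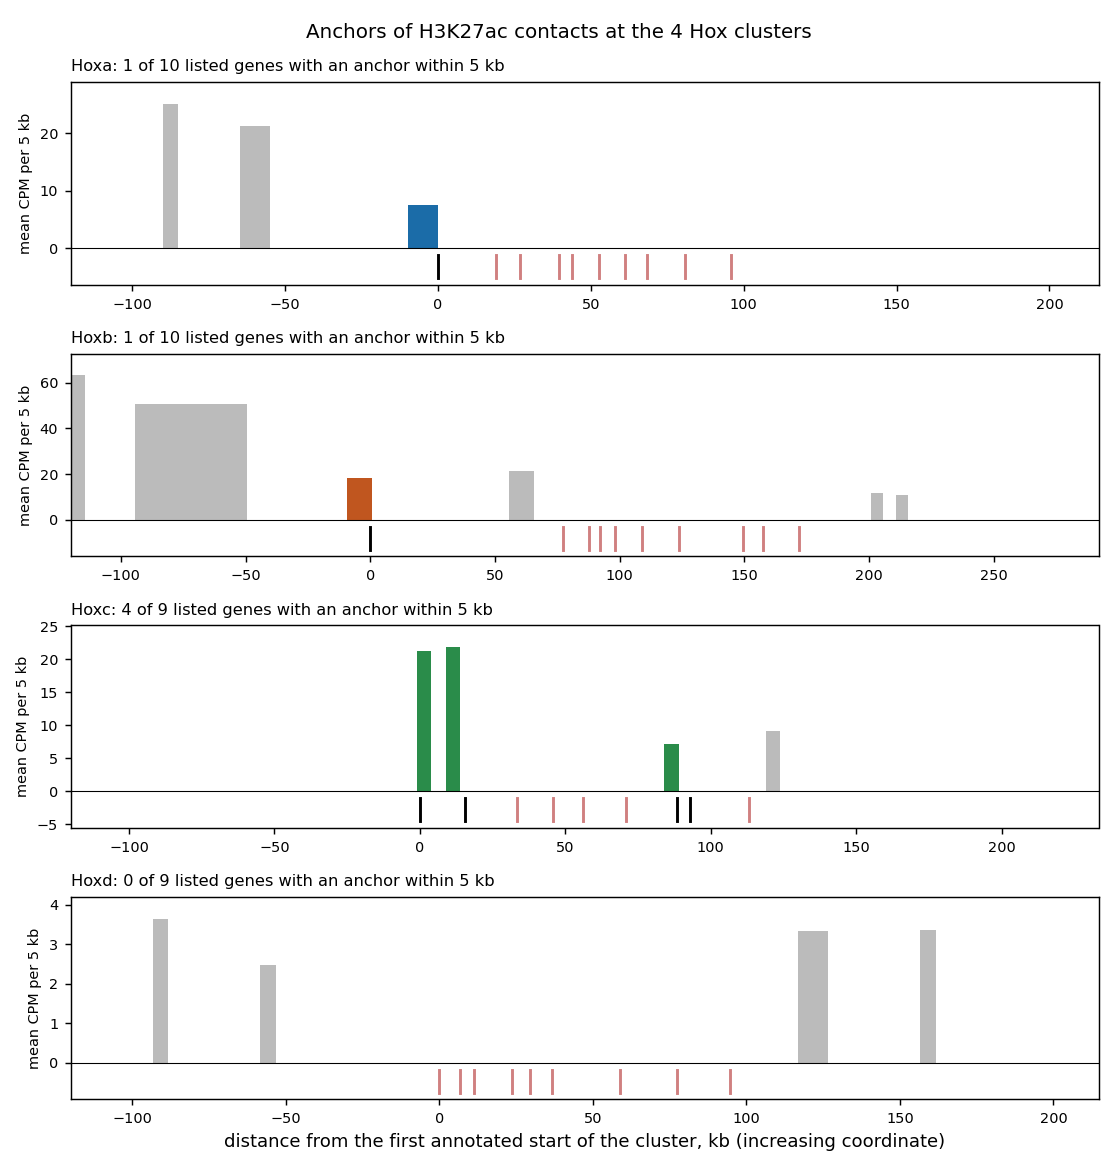
Anchors at each Hox cluster, as bars placed by distance in kb from the first annotated start, with height the mean CPM per 5 kb over 8 libraries on a linear axis that differs between panels. Coloured bars are Hox anchors, grey bars other anchors, black ticks are listed genes with an anchor within 5 kb and red ticks those without, drawn at the first or last start, whichever is nearer to an anchor. Hoxa and Hoxb hold 1 coloured bar each at an end of the cluster, Hoxc holds 3, and Hoxd none.

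The level of an anchor is the sum of the read pairs of all its loops, given as CPM, the count scaled to the sum of all anchor counts of the library and a TMM factor. A loop between 2 anchors enters both sums. In these bulk libraries, contact in fewer cells and weaker contact per cell cannot be told apart. Per 5 kb of anchor, the mean level was highest at Hoxc12 (21.9) and Hoxc13 (21.2), followed by Hoxb13 (18.1), Hoxa2 (7.62) and Hoxc5/Hoxc6 (7.21). Most of the 306 counts at Hoxc12 and of the 296 at Hoxc13 came from the loop between them, described below. That loop enters both sums, and the place of these anchors above Hoxb13 rests on it. The median over all anchors was 8.09. The Hox anchors thus fell between percentiles 46.9 and 79.0 of all anchors, and those 5 levels were within the common range of acetylated anchors.

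The Hoxc13 anchor, at chr15:102920001-102925000, holds the start of the gene. Its counts were 35 and 30 for B6, 25 and 51 for B6-13D2, 39 and 30 for D2, and 43 and 43 for D2-13B6. In CPM the line means were 22.04 ± 0.776 (SD, n = 2) for B6, 19.5 ± 5.65 for B6-13D2, 24.3 ± 2.52 for D2 and 19.1 ± 0.0444 for D2-13B6. Both D2-13B6 libraries were below all 4 parental libraries, while the B6-13D2 libraries, at 15.5 and 23.49, spanned from the lowest value of the 8 to above both of B6.

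The Hoxc12 anchor, at chr15:102930001-102935000, ends 1.76 kb before the gene's start. Its counts were 38 and 27 for B6, 41 and 50 for B6-13D2, 35 and 27 for D2, and 39 and 49 for D2-13B6. Its mean CPM was 21.8 ± 2.12 (SD, n = 2) for B6, 24.2 ± 1.69 for B6-13D2, 21.8 ± 2.22 for D2 and 19.5 ± 3.18 for D2-13B6. No line stood apart.

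The Hoxc5/Hoxc6 anchor, at chr15:103005001-103010000, contains a start of Hoxc6 and ends 3.82 kb before one of Hoxc5. It had the fewest counts of the 5, namely 14 and 12 for B6, 7 and 15 for B6-13D2, 13 and 12 for D2, and 11 and 14 for D2-13B6. Scaled to CPM, both parental lines were above both congenic lines, with 8.81 ± 0.310 (SD, n = 2) in B6 and 8.84 ± 0.222 in D2 against 5.63 ± 1.82 in B6-13D2 and 5.55 ± 0.954 in D2-13B6. The highest congenic library was at 6.91 and the lowest parental library at 8.595. This is a difference of interval effects between backgrounds, and its test follows below.

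The Hoxb13 anchor, at chr11:96185001-96195000, is 2 bins of 5 kb, of which the higher-coordinate one holds the start. The bins took 228 and 280 counts, so the contacts were spread over both. Library counts were 61 and 51 for B6, 53 and 69 for B6-13D2, 57 and 49 for D2, and 81 and 87 for D2-13B6. The mean CPM was 37.9 ± 0.668 (SD, n = 2) for B6, 32.3 ± 0.768 for B6-13D2, 37.4 ± 0.944 for D2 and 37.3 ± 1.97 for D2-13B6. The B6-13D2 libraries were the lowest of the 8, and the other 3 lines overlapped.

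The Hoxa2 anchor, at chr6:52155001-52165000, was also 2 bins, with 106 counts in the bin without the start and 100 in the bin with it. Counts were 16 and 24 for B6, 26 and 28 for B6-13D2, 30 and 28 for D2, and 25 and 29 for D2-13B6. The mean CPM was 13.95 ± 5.83 (SD, n = 2) for B6, 14.5 ± 2.28 for B6-13D2, 20.5 ± 0.675 for D2 and 11.98 ± 1.28 for D2-13B6. Both D2 libraries were above all 6 others, and the B6 libraries differed the most between themselves, at 9.82 and 18.1 CPM.

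**Figure D2:**
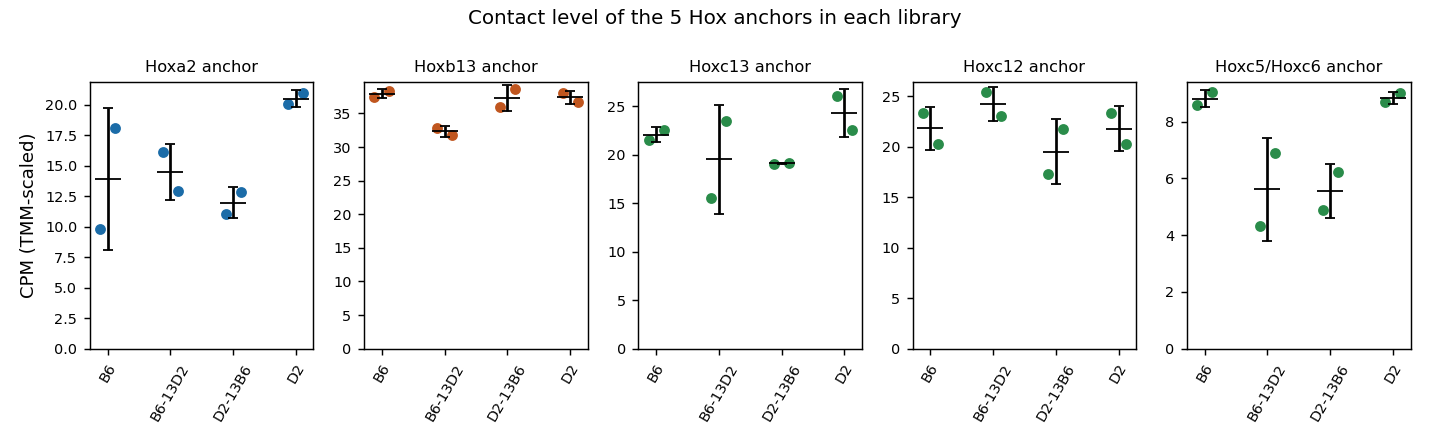
CPM of the 5 Hox anchors in each library (linear axes from 0). Dots are the 2 technical replicates of a line, horizontal marks their mean and bars the SD. The D2 libraries are highest at Hoxa2, and at Hoxc5/Hoxc6 the parental lines B6 and D2 lie above the congenic lines.

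None of the 5 Hox anchors differed between lines at an FDR of 0.05 in any of 6 contrasts, in edgeR's quasi-likelihood test over 21211 anchors. Of all anchors, 11.8% were called for D2 against B6, 5.25% for B6-13D2 against B6 and 5.69% for D2 against D2-13B6. For the averaged interval effect (D2 allele minus B6 allele) 6.15% were called, for the averaged background effect (D2 minus B6) 24.8%, and for the interaction, the interval effect in the D2 background minus that in the B6 background, 4.74%. DESeq2 also called 0 of the Hox anchors in each. At an unadjusted p under 0.05, 1 Hox anchor passed in D2 against D2-13B6, 1 in the averaged interval effect and 1 in the interaction, where 17.8%, 19.3% and 17.3% of all anchors did. Read against these background shares, 0 calls among 5 anchors does not set the Hox anchors apart.

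The nearest to a call was Hoxa2. Its log2 fold change was 0.77 (SE 0.288) in D2 against D2-13B6, with an unadjusted p of 0.00889 and an adjusted p of 0.105. It was 0.59 (SE 0.308) in D2 against B6, with an adjusted p of 0.226, and these 2 contrasts share the D2 libraries. The averaged interval effect was 0.42 (SE 0.213, adjusted p = 0.257), and it was 0.22 without B6 replicate 1 (adjusted p = 0.707) and 0.65 without B6 replicate 2 (adjusted p = 0.0723). At Hoxc5/Hoxc6 the interaction was 1.26 (SE 0.613), with an unadjusted p of 0.0429 and an adjusted p of 0.267. The median over the 5 anchors was 0.11 for the averaged interval effect and 0.04 for the background effect, beside 0.01 and 0.01 over all anchors. It was 0.35 for D2 against D2-13B6 and 0.49 for the interaction, beside 0.03 and 0.03 over all anchors, and all 5 anchors were above 0 in both contrasts, which share libraries. Hoxb13 was above 0 by only 0.01 (SE 0.194) in D2 against D2-13B6, and under other settings it ran from -0.05 to 0.48.

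For Hoxb13 the comparison with D2-13B6 has to be read beside its chromosome. The anchor's log2 fold change in D2 against D2-13B6 was 0.01 (SE 0.194, adjusted p = 0.992). The median of 1660 anchors on chromosome 11 in the same contrast was -0.45, and 30.5% of them were called. With a scaling factor per chromosome the Hoxb13 value became 0.48 (adjusted p = 0.186). The size of this difference therefore depends on whether the anchor is set against the genome or against its own chromosome. Whether the number of copies of chromosome 11 differed in D2-13B6 was not tested.

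The 162 loops were distributed unevenly, with 23 at Hoxa, 64 at Hoxb, 75 at Hoxc and 0 at Hoxd. Most were thin. A single count over all libraries was the whole of 33.3% of them, close to 34.2% of all loops, and 13 had a count in every library. Among the Hox anchors, Hoxb13 alone had 64 loops, more than 95.5% of anchors, while the other 4 had 23 to 27, near the median of 25. Other anchors around Hoxb13 also had many. The anchor inside Hoxb had 79 (percentile 98.8), the Calcoco2/Ttll6 anchor 106 and the anchor above Hoxb 44 (percentile 82.2).

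A loop between 2 Hox anchors could occur in Hoxc only, since Hoxa and Hoxb had 1 Hox anchor each. In Hoxc 3 loops joined 2 Hox anchors and held 181 counts, of which Hoxc13 to Hoxc12 took 175. The counts of that loop were 24 and 20 for B6, 15 and 32 for B6-13D2, 18 and 15 for D2, and 27 and 24 for D2-13B6. It spans 10.0 kb, the shortest distance the table lists, and its level per pair of 5-kb bins was at percentile 94.1 of 1088 loops whose span was within 10% of its own. Its mean CPM, here scaled to the sum of loop counts, was 25.6 ± 1.32 (SD, n = 2) for B6, 19.5 ± 5.79 for B6-13D2, 20.4 ± 1.18 for D2 and 18.5 ± 1.71 for D2-13B6. The averaged background effect was -0.22 (SE 0.234, adjusted p = 0.655).

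Hoxb13 was joined most strongly to the region of Calcoco2, an autophagy receptor, and Ttll6, a tubulin-modifying enzyme, 67.5 kb away. This loop had 27 and 18 counts in B6, 22 and 16 in D2, 19 and 31 in B6-13D2, and 24 and 30 in D2-13B6. In summed counts it was followed by the region of Igf2bp1, an RNA-binding protein, and Gip, with 74 counts at 200 kb, and that of Atp5g1, a subunit of ATP synthase, and Ube2z, with 42 counts at 120 kb. The Igf2bp1 region is 70 kb wide and the Atp5g1 region 20 kb. Per pair of 5-kb bins their mean CPM was 0.319 and 0.625, so their order reversed. These 3 partners lie on the side away from the other Hoxb genes. The fourth, 31 counts at 610 kb, was the region of Cbx1, Nfe2l1 and Snx11, and it lies across all 9 other listed Hoxb genes. The nearest anchor on that side, without a coding start and 65 kb away, took 23 counts, at percentile 41.1 of loops of like span.

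Hoxa2 was joined to 3 regions with enough counts to test. The first held the non-coding gene Halr1, 55 kb away, with 3 and 8 counts in B6, 8 and 6 in D2, 6 and 12 in B6-13D2, and 3 and 6 in D2-13B6. The second, 150 kb away, was at Skap2, an adaptor protein of blood cells, with 45 counts. The third, 127.5 kb away at chr6:52025001-52040000 and without a coding start, had 1 and 1 for B6, 4 and 1 for B6-13D2, 5 and 4 for D2, and 6 and 5 for D2-13B6. All 3 lie on the side of Hoxa2 away from the remaining Hoxa genes.

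In Hoxc the 3 anchors shared 1 leading partner outside the cluster, a region of 55 kb with the starts of Cbx5, Hnrnpa1 and Nfe2. Hoxc12 had 34 counts to it, Hoxc13 had 33 and Hoxc5/Hoxc6 had 29, at 295, 305 and 220 kb. The counts from Hoxc12 were 2 and 4 for B6, 7 and 5 for B6-13D2, 1 and 4 for D2, and 2 and 9 for D2-13B6. Those from Hoxc5/Hoxc6 were 5 and 6, 1 and 3, 2 and 4, and 4 and 4 in the same order of lines. Every library had under 10 counts. In raw counts from Hoxc5/Hoxc6, both B6 libraries were above both B6-13D2 libraries.

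The direction of contacts, given here by coordinate, differed between clusters. The lower-coordinate side is that of the low-numbered genes at Hoxa and of the high-numbered genes at Hoxb and Hoxc. Of counts leaving the cluster's Hox anchors, 94.2% went to the lower-coordinate side at Hoxa (exact 95% interval 90.1% to 97.0%), 72.6% at Hoxb (68.5% to 76.5%) and 58.3% at Hoxc (52.8% to 63.6%). Over single libraries the ranges were 87.5% to 100% for Hoxa, 65.3% to 81.2% for Hoxb and 48.3% to 65.3% for Hoxc. Loops that passed over at least 1 other listed gene of the cluster took 5.83% of outward counts at Hoxa, 22.8% at Hoxb and 77.2% at Hoxc. The Hoxa2 and Hoxb13 anchors are at the lower-coordinate ends of their clusters, and the Hoxc anchors span most of theirs. The nearest anchor outside Hoxa lay 54.8 kb below its first start and 174.1 kb above its last. These distances were 49.3 and 28.7 kb at Hoxb, and 196.1 and 5.61 kb at Hoxc. How far the positions of available anchors account for these shares was not tested. Intervals are on read pairs pooled over the 8 libraries, so they cover counting error only and not the spread between libraries or lines. Read pairs also carry no molecular identifiers.

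Partners differed in distance too. Loops under 200 kb took 65.5% of outward counts at Hoxa, 52.8% at Hoxb and 5.03% at Hoxc. Outward counts at Hoxc leave out 181 of its 519 counts, which joined Hox anchors to each other. Hoxa and Hoxb, with 1 Hox anchor each, could have no such counts. The nearest anchor below Hoxc also lay 196.1 kb from its first start, and that above it 5.61 kb from its last. The loop from Hoxb13 to Gip/Igf2bp1 spans exactly 200 kb, and with loops of that span included the shares were 65.5%, 67.3% and 6.21%, so the order of Hoxa and Hoxb rests on that loop. The median span of outward loops was 552.5 kb, 845 kb and 460 kb, beside 602.5 kb for all loops between 2 anchors. A coding start lay at the partner for 48.1% of outward counts at Hoxa, 88.4% at Hoxb and 90.2% at Hoxc.

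**Figure D3:**
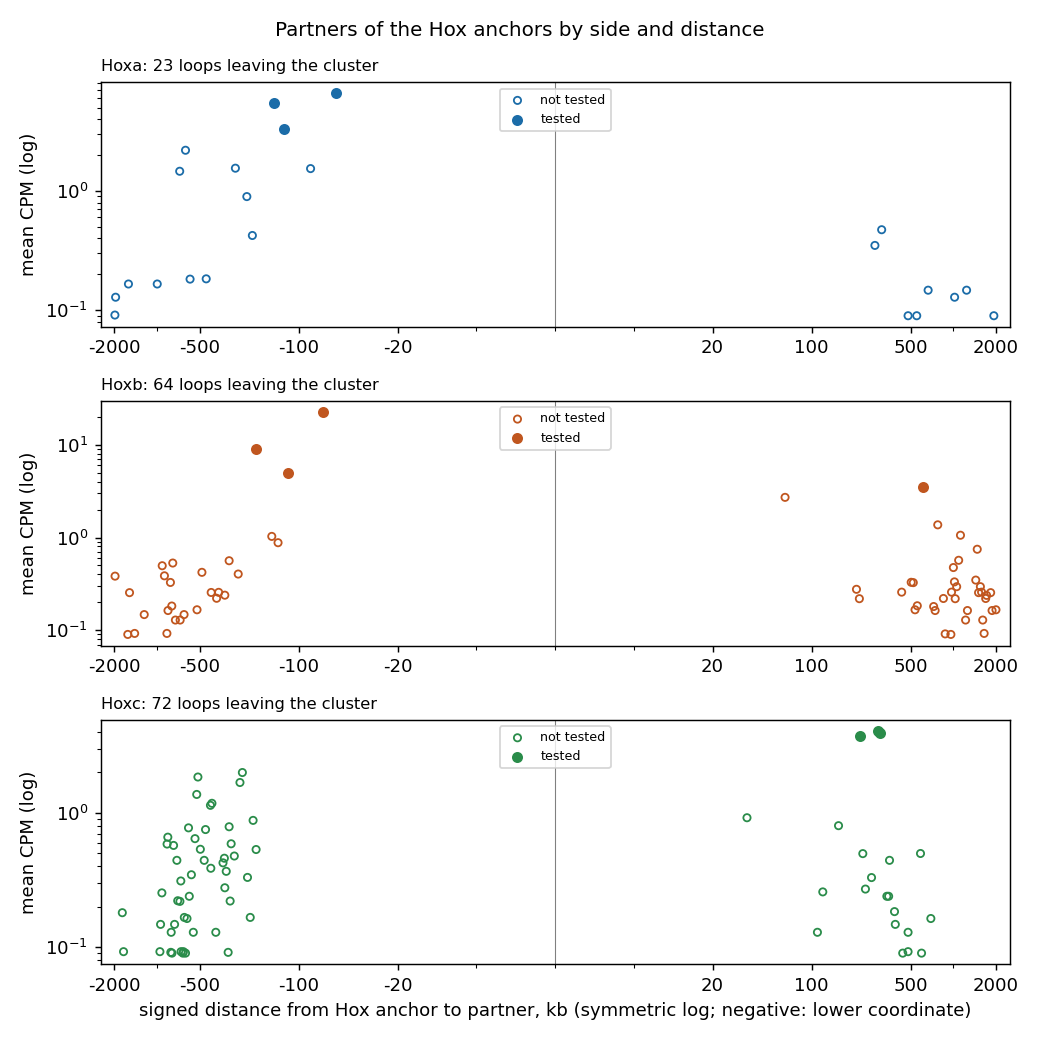
Outward loops of the Hox anchors, with signed distance to the partner in kb on a symmetric log axis and mean CPM over 8 libraries on a log axis. Filled points had enough counts to be tested and open points did not. In Hoxa the 3 tested partners are all on the lower-coordinate side, in Hoxb 3 of 4, and in Hoxc the 3 tested loops all reach 1 region on the higher-coordinate side.

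Members of the same gene families recurred among the partners of different clusters, as a description chosen after the values were seen. Genes near Hox clusters are known to have been duplicated along with them. The genes of the HP1 heterochromatin proteins were 1 such family, with Cbx3 among the partners of Hoxa2 (12 counts), Cbx1 among those of Hoxb13 (31) and Cbx5 among those of all 3 Hoxc anchors. Genes for subunit c of ATP synthase were another, with Atp5g1 at Hoxb13 and Atp5g2 at Hoxc13 (16 counts), Hoxc12 (14) and Hoxc5/Hoxc6 (4). The adaptor Skap2 was a partner of Hoxa2 and Skap1 of Hoxb13 (2 counts), and the zinc-finger factor Sp2 was a partner of Hoxb13 (12) and Sp1 of Hoxc13 (15). These genes carry anchors of their own, and their loops to Hox anchors were not tested against loops of other genes at the same distance beyond the percentiles given. Those were 86.5 for both Hoxc12 and Hoxc13 to Cbx5, 69.4 for Hoxc5/Hoxc6 to Cbx5, 66.1 for Hoxb13 to Cbx1 and 80.5 for Hoxa2 to Cbx3.

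At the level of single loops, 11 of the 162 reached 5 counts in 2 or more libraries and were tested, and they held 59.1% of Hox counts. None was called in any contrast, in edgeR over 44706 loops or in DESeq2. The share of all tested loops called was 2.65% for D2 against B6, 0.879% for B6-13D2 against B6, 0.91% for D2 against D2-13B6, 0.989% for the averaged interval effect, 8.85% for the averaged background effect and 0.602% for the interaction. At an unadjusted p under 0.05, 1 Hox loop passed in each contrast except the interaction, where the number was 0, and of all tested loops between 8.97% (interaction) and 20.7% (background effect) did. Over all 6 contrasts the smallest adjusted p was 0.173. These are counts of 11 loops, which were selected by depth and share anchors.

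Of those that passed unadjusted, Hoxa2 to Halr1 had a log2 fold change of 1.38 (SE 0.611, adjusted p = 0.401) in D2 against D2-13B6 and of 0.82 (SE 0.412, adjusted p = 0.453) for the averaged interval effect. The latter was 0.46 without B6 replicate 1 (adjusted p = 0.807) and 1.34 without B6 replicate 2 (adjusted p = 0.207). The loop from Hoxa2 to the partner 127.5 kb away had 2.15 (SE 1.08, adjusted p = 0.361) in D2 against B6 and 1.5 (SE 0.686, adjusted p = 0.173) for the background effect. The Hoxc5/Hoxc6 to Cbx5 loop had -1.83 (SE 0.852, adjusted p = 0.436) in B6-13D2 against B6. Standard errors ran from 0.412 to 1.08 on the log2 scale, and none of these differences passed adjustment.

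Each cluster's counts were also summed per library and compared between the 4 libraries of either allele or background with an exact two-sided permutation test, which cannot give a p below 0.0286. It treats the 2 technical replicates of a line as separate samples. With the 2 lines of a side as units, a test chosen after seeing the data, no p below 0.333 is possible. The Hoxa sum was 16 and 24 for B6, 26 and 28 for B6-13D2, 30 and 28 for D2, and 25 and 29 for D2-13B6. The Hoxb sum was that of its 1 anchor. The Hoxc sum was 61 and 49, 58 and 84, 68 and 53, and 66 and 80 in the same order. No cluster had libraries of 1 side all above those of the other.

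On the log2 scale of CPM the interval difference (D2 allele minus B6) was 0.46 for Hoxa (exact p = 0.171, adjusted over 6 tests 0.6), -0.10 for Hoxb (exact p = 0.4, adjusted 0.6) and 0.21 for Hoxc (exact p = 0.2, adjusted 0.6). The background differences were 0.19, 0.11 and 0.01, with exact p-values of 0.571, 0.343 and 1.0. Ratios between clusters were tested too. Hoxb minus Hoxc was -0.20 ± 0.0863 (SD over 4 libraries of 2 lines) with the D2 allele and 0.12 ± 0.128 with the B6 allele, a difference of -0.31 (exact p = 0.0286, adjusted over 6 tests 0.171). The libraries of the 2 alleles did not overlap in this ratio, and the test reached the smallest p it can give, but it did not pass after adjustment. The anchors of Hoxb lie on chromosome 11, whose median anchor moved by -0.25 for the averaged interval effect, against 0.02 on chromosome 15, where Hoxc lies. On shares of each chromosome's own counts, an alternative chosen after seeing the data, the difference was -0.06 (exact p = 0.6). It was -0.17 (exact p = 0.314) with only anchors that hold a start.

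Hoxa minus Hoxb differed by 0.56 between alleles (exact p = 0.0571, adjusted 0.171), and by 0.29 (exact p = 0.229) on shares of each chromosome's own counts. In Hoxc the share of counts leaving the cluster was 69.5% ± 5.35 (SD over 4 libraries of 2 lines) with the D2 allele and 60.8% ± 4.55 with the B6 allele, a difference of 8.69 percentage points (exact p = 0.0571, adjusted over 2 tests 0.114). With the 10-kb window it was 5.42 points (exact p = 0.2).

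Of 9 anchors beside or between the clusters' genes, 8 were tested and 4 were called for the background effect, where 24.8% of all anchors were called. The uncalled ones were those above Hoxa (adjusted p = 0.368), above Hoxb (0.202), inside Hoxb (0.805) and above Hoxd (0.0637). The Halr1 anchor, beside Hoxa, had 30.5 ± 4.85 CPM (SD, n = 2) for B6, 33.1 ± 2.06 for B6-13D2, 53.9 ± 5.10 for D2 and 53.3 ± 4.90 for D2-13B6. All 4 libraries of D2 background were above the other 4, and the averaged background effect was 0.76 (SE 0.136, adjusted p = 4.79e-06). The interval effect was 0.08 (SE 0.137, adjusted p = 0.816). Hoxa2, 55 kb away and joined to it, had a background effect of 0.17 (SE 0.213, adjusted p = 0.619). The difference between those 2 effects was not tested.

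On the other side of Hoxc, an anchor without a coding start at chr15:103040001-103045000, 5.61 kb from Hoxc4, was lower in the D2 background. Its counts were 17 and 22 for B6, 18 and 19 for B6-13D2, 10 and 9 for D2, and 15 and 13 for D2-13B6. The background effect was -0.81 (SE 0.277, adjusted p = 0.022). Its call was lost with DESeq2 (adjusted p = 0.201) and without B6 replicate 2, either D2 replicate, B6-13D2 replicate 1 or D2-13B6 replicate 2. Over 14 alternatives the effect ran from -0.97 to -0.64. The Calcoco1 anchor on the opposite side of Hoxc was higher in the D2 background by 0.52 (SE 0.201, adjusted p = 0.0476). This call was also lost in 10 of 15 alternatives, over which the effect ran from 0.39 to 0.65. The Calcoco2/Ttll6 anchor beside Hoxb was lower in the D2 background by a log2 fold change of -0.45 (SE 0.0772, adjusted p = 1.64e-06), and by -0.70 (adjusted p = 7.58e-14) with a scaling factor per chromosome, while the Hoxb13 anchor had 0.10 (SE 0.14, adjusted p = 0.676).

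Hoxd was flanked by thin anchors. The one below it had 34 counts in all and was not tested, and the one above Hoxd1, at chr2:74785001-74795000, had 7 and 12 for B6, 6 and 5 for B6-13D2, 19 and 15 for D2, and 11 and 12 for D2-13B6. Its interaction was 2.35 (SE 0.696, adjusted p = 0.0306). The call was lost without B6 replicate 2, B6-13D2 replicate 2 or any library of D2 or D2-13B6, while the value ran from 1.775 to 2.837 over 13 alternatives. Loops that pass over a whole cluster, with an anchor on either side, were present at Hoxd too. There were 92 with 318 counts at Hoxd, the strongest joining Atf2 with Hnrnpa3 and Nfe2l2 (33 counts), beside 91 with 182 at Hoxa, 165 with 1443 at Hoxc and 622 with 4092 at Hoxb. Hoxd therefore lay inside spanning contacts of acetylated anchors while holding none itself.

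The strongest loop over Hoxb joined Gip and Igf2bp1 with Cbx1, Nfe2l1 and Snx11. Its counts were 26 and 25 for B6, 21 and 52 for B6-13D2, 14 and 20 for D2, and 66 and 86 for D2-13B6. It was lower in D2 than in D2-13B6 by a log2 fold change of -1.38 (SE 0.274, adjusted p = 0.000237). The D2-13B6 libraries were the 2 highest, and the median shift of chromosome 11 in this contrast, given above, is part of the same data.

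The other gene lists place the clusters among their regulators and neighbours. An anchor within 5 kb was present at 26 of 29 Polycomb subunit genes, 14 of 14 trithorax-group genes, 8 of 9 genes of the TALE homeodomain cofactors of HOX proteins, 10 of 16 genes of retinoic acid signalling and Cdx factors, and 23 of 26 neighbours of the clusters. Of 31 other homeobox regulators that are silent in stem cells, such as Pax6, 4 had one (12.9%). Among these lists the Hox genes were thus closest in this share to the homeobox regulators chosen as silent in stem cells. They were far from the TALE homeodomain genes, of which 8 of 9 had an anchor. The median level of tested anchors per 5 kb was 12.9 CPM over 6 Hox genes, 32.3 over 25 Polycomb genes, 30.2 over 14 trithorax genes, 47.9 over 21 neighbours, 10.8 over 8 TALE cofactor genes and 11.3 over 10 retinoic acid and Cdx genes. Hoxc5 and Hoxc6 enter the Hox median with the same anchor, and the median of the 5 distinct anchors was 18.1. The 21 neighbours likewise share 15 distinct anchors, whose median was 27.9.

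**Figure D4:**
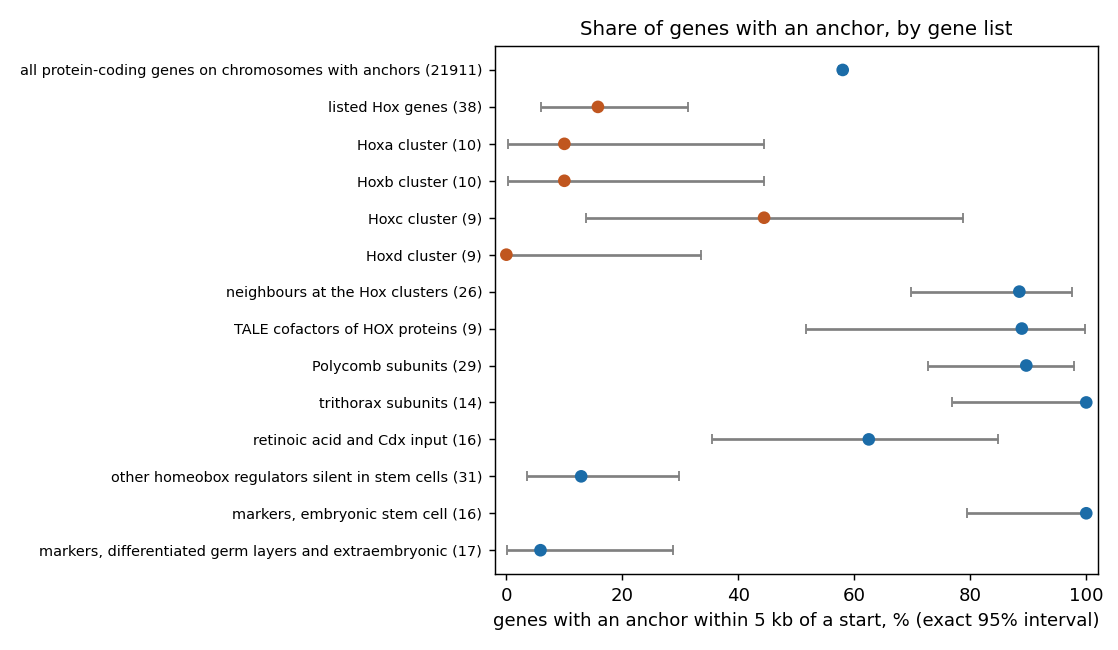
Share of genes with an anchor within 5 kb of an annotated start, in percent, for the Hox clusters (orange) and other gene lists (blue). Bars are exact 95% binomial intervals, and the number of genes is in brackets. The listed Hox genes (15.8%) lie far below all protein-coding genes (58.0%) and beside other homeobox regulators chosen as silent in stem cells (12.9%).

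For the background effect, the called shares of Polycomb and trithorax genes were near that of all anchors, so they say nothing particular about these lists. There 7 of 25 Polycomb genes had a called higher anchor and 0 a lower one, and 2 of 14 trithorax genes had a higher and 1 a lower one, where 24.8% of all anchors were called. Suz12, a core subunit of the complex that places H3K27me3, had a background effect of 0.59 (SE 0.0744, adjusted p = 3.29e-10). Its line means were 562 CPM for B6, 765.8 for B6-13D2, 753.4 for D2 and 1292 for D2-13B6, so D2-13B6 was the highest and B6 the lowest. The effect at Epop, 0.50 (SE 0.0895, adjusted p = 4.2e-06), came with a difference of only 0.08 (SE 0.135, adjusted p = 0.787) in D2 against B6, and its mean was 274.5 CPM for D2-13B6 against 142.4 to 151.1 in the other lines. Suz12 and Epop lie on chromosome 11, whose median for this effect was 0.26. Mtf2, on chromosome 5, had 0.24 (SE 0.0729, adjusted p = 0.00774), and Rbbp4 was not called. None of the trithorax genes called for this effect was among Dpy30, Rbbp5, Kmt2b and Kmt2c, those with the highest level. In D2 against D2-13B6, 0 of 25 Polycomb genes were higher and 6 lower, and in the interaction 0 and 5. Among 14 trithorax genes these numbers were 0 and 2, and 0 and 1. Of all anchors 5.69% and 4.74% were called in these contrasts, and of those on chromosome 11, 30.5% and 17.5%. Suz12 and Epop were lower in both.

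Of the 8 tested TALE cofactor genes, 1 was higher and 2 were lower in D2 background, where 24.8% of all anchors were called. Pknox2 fell by a log2 fold change of -1.30 (SE 0.13, adjusted p = 2.3e-14) and Pknox1 by -0.25 (SE 0.08, adjusted p = 0.0136). For the averaged interval effect, 1 of 10 retinoic acid and Cdx genes was higher and 3 were lower with the D2 allele, where 6.15% of all anchors were called. The lower ones were Dhrs3, a retinaldehyde reductase (-0.63, SE 0.112, adjusted p = 4.01e-05), and the retinoic acid receptors Rarg (-0.44, SE 0.0897, adjusted p = 0.000416) and Rara (-0.41, SE 0.0913, adjusted p = 0.00153). Rara lies on chromosome 11, whose median for this effect was -0.25.

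The neighbours of the Hox clusters shared 15 tested anchors, of which 1 was higher and 2 were lower for the averaged interval effect, where 6.15% of all anchors and 18.5% of those on chromosome 11 were called. The higher one was Skap2 near Hoxa, at 0.47 (SE 0.0918, adjusted p = 0.000278). Its interval effect was 0.78 (SE 0.133, adjusted p = 2.35e-05) in the B6 background and 0.15 (SE 0.126, adjusted p = 0.603) in the D2 background. The lower ones, both near Hoxb on chromosome 11, were Skap1 (-0.63, SE 0.132, adjusted p = 0.000737) and the anchor of Cbx1, Nfe2l1 and Snx11 (-0.32, SE 0.0736, adjusted p = 0.00229). The difference between these effects and those of the Hox anchors was not tested.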

How the data were processed

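The deposited series table held whole-number counts of read pairs per loop, which the authors did not normalize, for 8 libraries, and the total of each library equalled that of its own deposited file. The submitters' processing notes name BWA 0.7.18, SAMtools 1.19.2, edgeR 3.34.1 and mm10. How anchors were called is not given in the sources used here. CPM values were computed here with TMM factors.

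Annotated starts came from GENCODE M21, on GRCm38. One gene of the family is not analysed here. Loops (at least 5 counts in at least 2 libraries) and anchor sums (at least 10 in at least 2) were tested over the whole table with edgeR 4.0.16 in R 4.3.3, with 1 mean per line and Benjamini-Hochberg adjustment at 0.05. DESeq2 1.42.0, other scalings, filters, windows and left-out libraries were alternatives. The members, gene lists and tests were chosen with earlier results of these data known. All Hox anchors and tested loops are given; loops named are the 3 highest by mean CPM per cluster and the 3 highest leaving it, besides the tested ones, the Hoxb13 loop over 65 kb and the strongest loops spanning Hoxb and Hoxd, which were chosen after their values were seen. List genes with values are among the 4 of highest level per 5 kb in their list, except the neighbours of the clusters and the partners grouped by gene family, chosen after their values were seen. On simulated counts for the background effect, 83.2% of anchors and 29.8% of loops changed 2-fold were called, and 100% and 77.7% of those changed 4-fold. Replicate pairs differed by more than sampling noise (chi-square per degree of freedom 1.05 to 1.55), so none were merged.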

Additional observations from a re-analysis of the deposited data

Results flagged for a closer look

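At several anchors and 1 loop near the clusters the interval effect differed between backgrounds, by the interaction term of edgeR's quasi-likelihood test (the effect in the D2 background minus that in the B6 background). At the Calcoco2/Ttll6 anchor beside Hoxb the difference was -0.62 (SE 0.154, adjusted p = 0.00692). The call was lost in 6 of 15 alternatives, among them a scaling factor per chromosome (-0.17, adjusted p = 0.611). At the anchor above Hoxd1 it was 2.35 (SE 0.696, adjusted p = 0.0306), on 87 counts in all. For the strongest loop spanning Hoxb, between Gip/Igf2bp1 and Cbx1/Nfe2l1/Snx11, it was -1.46 (SE 0.4, adjusted p = 0.0467). Of the 15 tested anchors of neighbour genes, 6 had a called lower interaction and 0 a higher one, 4 of the 6 on chromosome 11. The interaction was called at 4.74% of all anchors and at 17.5% of those on chromosome 11. Besides Calcoco2/Ttll6 these were Skap1 (-1.34), Cbx1/Nfe2l1/Snx11 (-0.93) and Atp5g1/Ube2z (-0.84) on chromosome 11, Skap2 (-0.64) near Hoxa and Cbx5/Hnrnpa1/Nfe2 (-0.55) near Hoxc. Of the Polycomb genes named, Suz12 (-1.22), Epop (-0.88) and Mtf2 (-0.69) were also lower. Chromosome 11 holds the Hoxb results, Suz12 and Epop, and its median anchor had an interaction of -0.41. No Hox anchor or Hox loop was among them. In 32 tests of single libraries within the 4 libraries of an allele or background, over the 3 clusters with counts and the 5 anchors, no library stood apart by Dixon's criterion.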

How the results depend on the processing

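The 12 counts of called Hox loops or anchors were recomputed under 17 settings, and 203 of 204 values stayed at 0. The exception was the window of 10 kb, under which 1 anchor was called lower for the background effect, namely the one beside Hoxc4. With the replicate block the counts were also 0; numbers did not pair the samples (correlations of replicate differences between lines from -0.151 to 0.0258 for anchors). Permuting within replicate number gave an adjusted p of 0.333 for Hoxb minus Hoxc. None of the 14 cluster comparisons passed adjustment in any alternative (smallest adjusted p 0.0857), and 168 of 180 values kept their direction.

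The reversals were these. On the share of its own chromosome's counts, Hoxb changed to -0.14 for background and 0.13 for interval, so its direction depends on that scaling. Hoxb minus Hoxc for background became -0.14 there, an alternative chosen after seeing the data. The Hoxc background difference became -0.13 with the 10-kb window and -0.0133 with library totals alone. Left-out libraries gave -0.11 to 0.13 for it, and -0.11 to 0.23 for Hoxa minus Hoxb; the 3 values below 0 for Hoxc were -0.114, -0.0418 and -0.0154, and those for Hoxa minus Hoxb -0.115, -0.0261 and -0.0656. The outward share of Hoxc for background, 3.96 points, was -0.45 with the start in the anchor, a setting that leaves out Hoxc12 and with it nearly all counts inside the cluster, so it is no check. The Hoxb13 anchor in D2 against D2-13B6 was -0.0415 with no filter, and between -0.052 and 0.0501 with single libraries left out, below 0 without D2 replicate 1 (-0.0209) or D2-13B6 replicate 1. The cause of the other reversals was not tested. With lines as units, an alternative chosen after seeing the data, p was 0.333 to 1.0 for the 14 cluster comparisons.

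Of the 162 loops, 11 were deep enough to test. Each genotype was 1 line with technical replicates. Anchors of the other gene lists were not recomputed.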
